A study of Rattus norvegicus with 20 samples.

Results

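Connexins are the membrane proteins of gap junctions, the channels that join the cytoplasm of neighbouring cells and pass ions and small metabolites between them. Pannexins are membrane proteins of a separate family that form channels to the outside of a single cell and release ATP. The genes described here are 9 listed members of these families, which are Gja1, Gjb6, Gjb2, Gjb1, Gjc3, Gjd2, Gja4, Gjc1 and Panx1, of 32402 genes in the tables. They were chosen by symbol and not by their values, and each of the 9 symbols stood for 1 Ensembl gene.

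The values come from poly(A) RNA of punches of the rat supraoptic nucleus (SON), the hypothalamic nucleus of magnocellular neurons that make vasopressin and oxytocin. There were 4 groups of 5 male Wistar Han rats, and the labels name no transgene or deletion. Adult EH rats were euhydrated and 3 months old, and aged EH rats were euhydrated and 18 months old. Adult DH and aged DH rats had the same ages and were deprived of water, for 2 days by the labels and for longer by the study's methods. Whole reads counted on genes came to between 24268398 and 30348118 per rat, and a member had between 62 and 12970 reads in a rat. None of 9 magnocellular markers, which include Avp and Oxt for vasopressin and oxytocin, was at 0 in any rat. Punches may also hold glia, vessels and the meninges at the ventral surface of the brain, and fewer cells of a type and less RNA per cell cannot be told apart in any value below.

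In the brain, most connexins belong to a single kind of cell. Astrocytes couple to each other through Gja1 and Gjb6, with Gjb2 in some astrocytes and in the leptomeninges, and this network carries potassium, glutamate products and glucose away from or towards active neurons. Oligodendrocytes use Gjb1 and, in rodents, Gjc3. Gjd2 forms the electrical synapses of neurons. Gja4 and Gja5 are found in arterial endothelium, and Gjc1 in vascular cells and some neurons. The SON is known for astrocytes that withdraw from its neurons during dehydration, and dye coupling between its neurons has been described.

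Promoter sequence is shown for Gja1, Gjb2 and Gjb6, all known from at least some astrocytes. These 3 genes had lower expression in aged EH than in adult EH rats, as did Gjc3 and Gjc1, whose sequences are not shown. Of the 9 members, 8 had an entry in the RefSeq promoter table (GRCr8), and Gjc1 had none. The 100 bases before the start of each gene are given 5′ to 3′ on the strand of the gene, and capitals mark 2 motifs searched on both strands, TTAAAA and the AP-1 motif TGANTCA.

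Gja1, chr20:36302464-36302563, plus strand: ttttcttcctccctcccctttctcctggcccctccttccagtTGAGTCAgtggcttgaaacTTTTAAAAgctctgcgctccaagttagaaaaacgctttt
Gjb2, chr15:35381954-35382053, minus strand: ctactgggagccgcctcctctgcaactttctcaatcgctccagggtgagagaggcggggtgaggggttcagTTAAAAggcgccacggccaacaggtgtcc
Gjb6, chr15:35410139-35410238, minus strand: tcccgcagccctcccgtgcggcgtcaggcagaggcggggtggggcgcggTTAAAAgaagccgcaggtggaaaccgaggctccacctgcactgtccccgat

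Each of the 3 windows held TTAAAA, which 6.90% of 33469 RefSeq promoters hold within the same 100 bases. In Gja1 the letters overlap on both strands in TTTTAAAA. Gja1 alone of the 3 held TGANTCA, found in 2.47% of these promoters. Gjc3, which also had lower expression in aged EH than in adult EH rats, had an entry that held neither motif in its 100 bases. Gjd2, which did not pass the test in any comparison, also held the letters TTAAAA. This motif was picked after the sequences were seen, and a match is a description of letters. Gjb2 and Gjb6 are neighbours on the chromosome in this annotation, and the Gjb6 window is that of the farther upstream of 2 entries. The other Gjb6 entry did not hold TTAAAA in its 100 bases, so the match in Gjb6 depends on the entry shown.

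**Figure D1:**
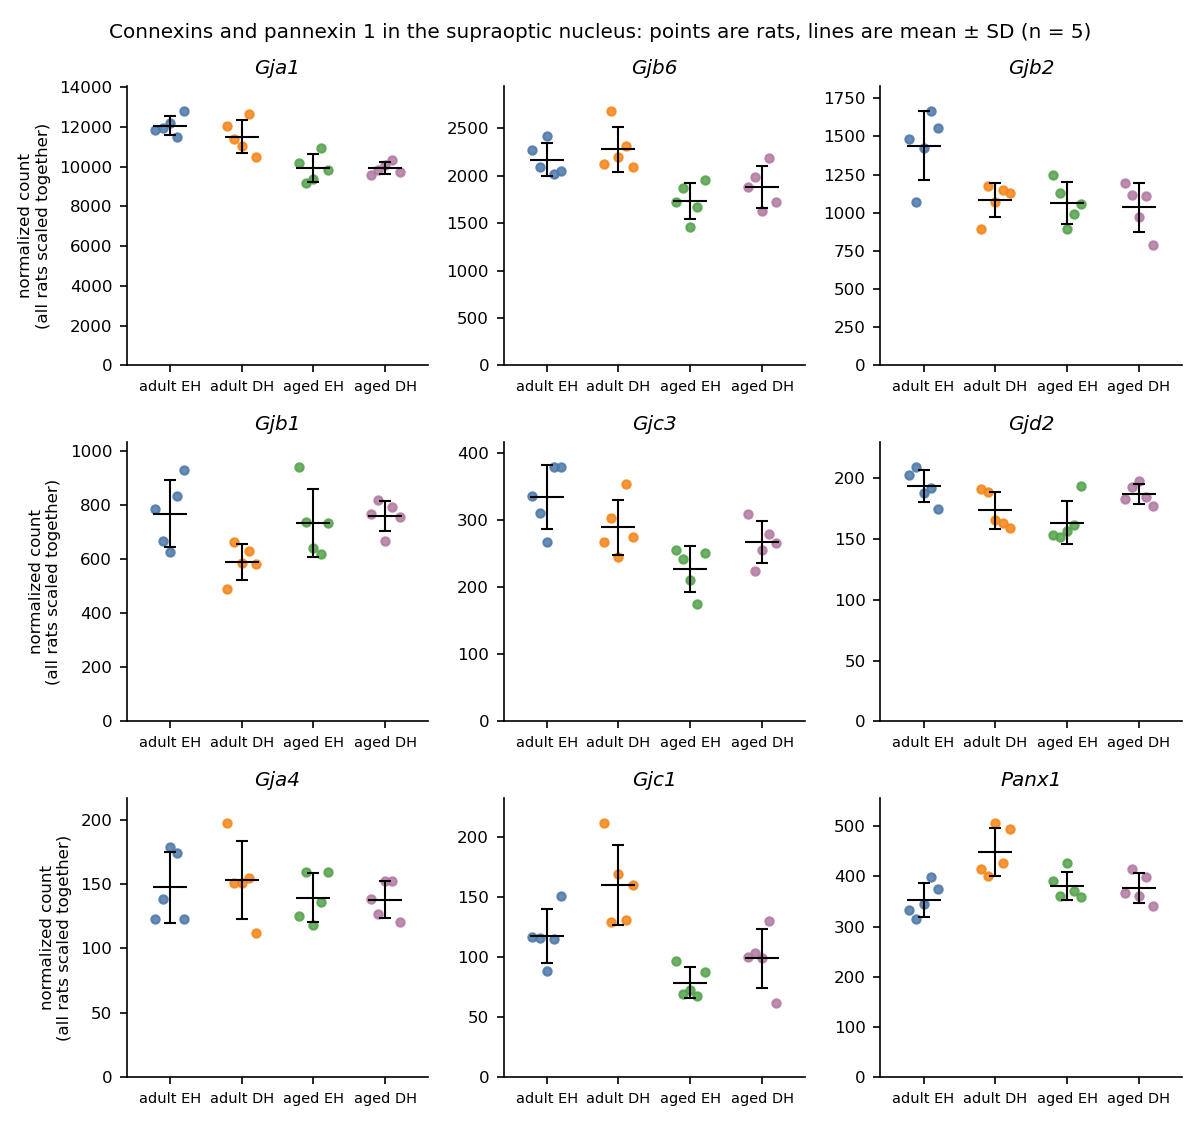
Normalized counts of the 9 genes (y axes, linear from 0, with whole reads of all 20 rats scaled together) in the 4 groups (x axis). Points are rats and lines are the mean ± SD (n = 5). Gja1 lay between 11470.3 and 12774 in adult EH and between 9188 and 10955 in aged EH rats, and Panx1 had its highest mean in adult DH rats (448).

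Ageing was examined first, as aged EH against adult EH rats. In this comparison 5 of the 9 genes fell and none rose. They were Gja1 and Gjb6, known from astrocytes, Gjb2, known from some astrocytes and the leptomeninges, the oligodendrocyte connexin Gjc3 and the vascular connexin Gjc1. Their log2 fold changes (LFCs, on the scale of log2 of the normalized count plus 1) ran from -0.28 to -0.56, and expression changed by between -17.9% and -32.3%. Of all 15369 genes tested with limma, 5.99% passed the Benjamini-Hochberg adjusted threshold of 0.05. Lower expression in aged rats was called for 3.30% and higher expression for 2.69%. The median LFC of the 9 genes was -0.28, against 0.00033 over all genes tested. Scaling to library totals moved the balance of all calls from 45.0% to 28.8% higher.

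Gja1 encodes the principal gap junction protein of astrocytes. Its normalized counts, in the order of the rats' numbers, were 12113, 12142, 12406, 11716 and 13047 in adult EH rats. They were 10427, 9394, 9566, 11116 and 10014 in aged EH rats. Every aged rat was below every adult rat. The LFC was -0.28 (95% confidence interval -0.38 to -0.19, limma adjusted p = 0.00298).

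Gjb6, the other main astrocyte connexin, was read at 2322, 2118, 2458, 2063 and 2087 in adult EH rats. It was read at 1756, 1909, 1485, 1698 and 1990.5 in aged EH rats, and the groups did not overlap. Its LFC was -0.33 (-0.48 to -0.17, limma adjusted p = 0.0189). Gjb2 was at 1511, 1087, 1449.8, 1699.8 and 1591 in adult EH and at 1274, 1156, 907, 1010.1 and 1074 in aged EH rats. The adult rat numbered 2 lay within the range of the aged rats and the other 4 lay above it. The LFC of Gjb2 was -0.43 (-0.67 to -0.19, limma adjusted p = 0.036).

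In the glial group of oligodendrocytes, Gjc3 was at 342, 315, 271, 386 and 386 in adult EH rats. In aged EH rats it was at 260.5, 247, 215, 176 and 255, again with no overlap. The LFC was -0.56 (-0.82 to -0.30, limma adjusted p = 0.0167). Gjb1, which forms channels in the myelin sheath, was at 634 to 949.6 in adult EH and 626 to 959 in aged EH rats. Its LFC was -0.07 (-0.33 to 0.19, limma adjusted p = 0.819). The difference between Gjc3 and Gjb1 was not tested.

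Gjc1 was the member with the fewest reads. It was at 119, 118, 90.1, 117 and 154 in adult EH and at 98.4, 71.1, 74.1, 68.7 and 89.4 in aged EH rats. Of the adult rats, 4 lay above all aged rats and the rat numbered 4 lay among them. The LFC was -0.56 (-0.88 to -0.24, limma adjusted p = 0.0406). The arterial connexin Gja4 was at 125 to 182 in adult EH and 120 to 162 in aged EH rats, with an LFC of -0.07 (-0.36 to 0.22).

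Gjd2, the connexin of electrical synapses, was at 208, 212, 191, 196 and 179 in adult EH rats. It was at 157, 155, 159.7, 164 and 197 in aged EH rats, where the rat numbered 6 stood above the other 4. Its LFC of -0.24 (-0.44 to -0.05) did not pass (limma adjusted p = 0.134), and without that rat it was -0.31 with a limma adjusted p of 0.0496. Panx1 was at 320.1 to 408 in adult EH and 365 to 434 in aged EH rats (LFC 0.11, -0.05 to 0.28, limma adjusted p = 0.463).

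Groups did not overlap for 3 of the 9 genes in ageing (Gja1, Gjb6 and Gjc3), and for 6.38% of all genes tested. The calls of these 3 genes held when any rat was left out. Without a mean trend in the moderation of limma, the call of Gja1 held, and those of Gjb6 (limma adjusted p = 0.0711), Gjc3 (0.0517), Gjb2 (0.105) and Gjc1 (0.0701) were lost. The call of Gjb2 was lost without any of the aged EH rats 2, 4, 5 and 6 or the adult EH rats 1, 4, 5 and 6 (limma adjusted p = 0.0527 to 0.0886). That of Gjc1 was lost without any of the aged EH rats 2, 4 and 5 or the adult EH rats 1, 2, 5 and 6 (limma adjusted p = 0.0728 to 0.0957). It was also lost with no filter on low values (limma adjusted p = 0.0623) and with all 4 groups scaled together in 1 fit (0.0514).

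**Figure D2:**
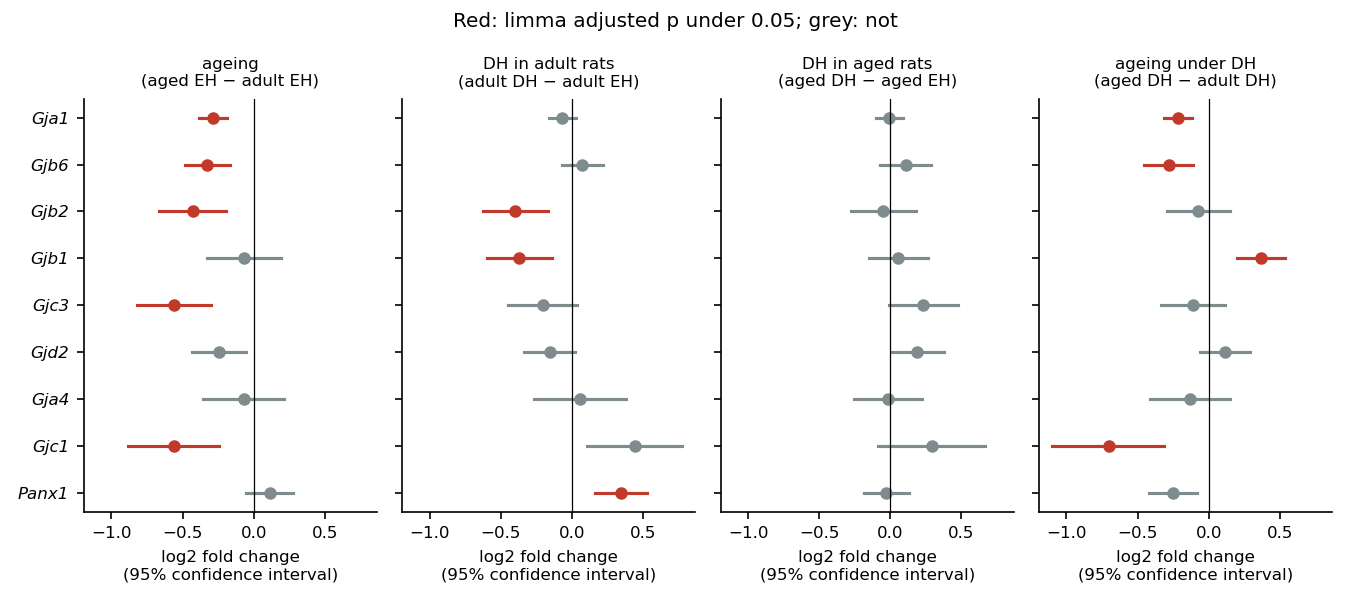
Log2 fold changes (x axes) of the 9 genes (y axis) in 4 comparisons, with 95% confidence intervals as lines. Red marks a limma adjusted p under 0.05 and grey marks the rest. In ageing 5 genes are red, all below 0, and under DH in aged rats none is red.

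Marker genes of the cell types that carry these connexins were read in the same libraries. Of 14 astrocyte markers, 1 fell with ageing, the water channel gene Aqp4 (LFC -0.26, limma adjusted p = 0.018), and none rose. Their summed counts overlapped, at 228859 to 261914 in adult EH and 230711 to 270274 in aged EH rats. Of 12 oligodendrocyte markers, 6 fell and none rose, and their sums were 284214 to 413334 in adult EH and 252818 to 305813 in aged EH rats. Among these 6 were Ugt8, Cldn11 and Mog, with LFCs from -0.79 to -0.36.

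Leptomeningeal fibroblast markers had the lowest median LFC of the marker lists, -0.67. Of 13 tested, 7 fell with ageing, and the sums over 17 genes did not overlap, at 30882 to 37266 in adult EH and 11948 to 20499 in aged EH rats. Of these 17 genes, 2 were at 0 in every rat. Of 8 endothelial markers, Cdh5 and Kdr fell (LFC -0.35 and -0.33), and their sums were 9692 to 10165 in adult EH and 8667 to 9690.5 in aged EH rats. Of 11 arterial and mural markers tested, Pdgfrb fell (LFC -0.28). Of 12 microglia markers, 5 rose with ageing. The part of these markers in the lower counts of Gja1, Gjb2, Gjb6, Gjc3 and Gjc1 was not tested.

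The spread from rat to rat within the groups was read apart from the group differences. For each of the 20 rats, the deviation of the log2 value from the mean of its own group was set against that of the mean over a marker list. These correlations are descriptions, and the points share their libraries and scaling. Gja1 went with the astrocyte list (Pearson's r = 0.76, Spearman's rho = 0.79, n = 20). Gjb1 went with the oligodendrocyte list (r = 0.91, rho = 0.91), and so did Gjc3 (r = 0.71, rho = 0.73). Gjb1 and Gjc3 are both expressed by oligodendrocytes.

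The 2 neighbouring genes Gjb6 and Gjb2 went less with astrocyte markers, at r = 0.43 and r = 0.21. For Gjb6 the highest r was with the leptomeningeal list (r = 0.74, rho = 0.78), which also fell with age. Gjb2 stood at r = 0.69 with the oligodendrocyte list and r = 0.59 with the leptomeningeal list. Gja4 went with the arterial and mural list (r = 0.84, rho = 0.82), and Gjc1 with the endothelial list (r = 0.81, rho = 0.79). Panx1 had its highest r, 0.55, with the magnocellular list. Gjd2, a neuronal connexin, had its highest r with the arterial and mural list (r = 0.55, rho = 0.60, and r = 0.37 without the 2 rats farthest from its median), and stood at r = -0.03 with the general neuron list and r = -0.29 with the magnocellular list. Without the 2 rats farthest from the median of each gene, r was 0.71 for Gja1, 0.89 for Gjb1, 0.74 for Gjb6, 0.77 for Gja4 and 0.65 for Gjc1 with the list that gave each its highest r.

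**Figure D3:**
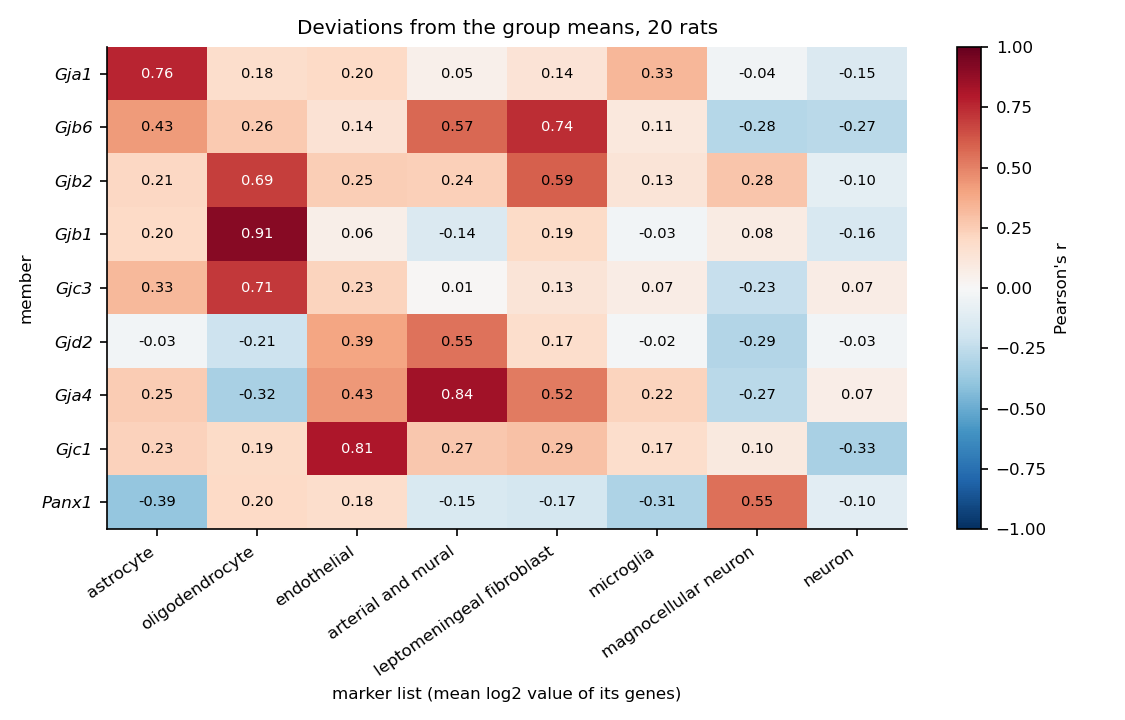
Pearson's r between each gene (rows) and the mean log2 value of each marker list (columns) over 20 rats, as deviations from the group means. The darkest cell is Gjb1 with the oligodendrocyte list (r = 0.91), and Gja1, Gja4 and Gjc1 have their highest r with the astrocyte, arterial and mural, and endothelial lists.

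The single genes most like each member were listed in the same way. Of 12576 genes, those with the highest r with Gjb1 included Elovl1 (0.94) and Mbp (0.92), which encodes a main protein of myelin. For Gja4 they were Pln, Mustn1 and Mgp (0.88, 0.84 and 0.82). For Gjb6 they were the transporter genes Slc13a3 and Slc6a13 and the prostaglandin receptor gene Ptgfr (0.89, 0.88 and 0.87). For Gja1 they were Notch1, Lrp4 and Ndrg2 (0.85, 0.80 and 0.79). For Gjc1 they included Cd34, an endothelial surface protein (0.82), and for Gjc3 the carbonic anhydrase gene Car2 (0.82) and Ermn (0.79). For Gjd2 they were Cplx1, Tut7 and Ccdc114 (0.77, 0.75 and 0.72). The r with Cplx1 was 0.65 without the 2 rats farthest from the median of Gjd2. For Panx1 the highest was Pus7l (0.84). Each is a top value picked from 12576 genes over 20 rats, and the r that such a search gives by chance was not computed. Among the members themselves, Gjb1 had r = 0.69 with Gjb2 and r = 0.68 with Gjc3.

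The response of adult rats to DH was examined next, as adult DH against adult EH. It shares the adult EH rats with the ageing comparison. In adult rats Panx1 rose, Gjb2 and Gjb1 fell, and the other 6 genes did not pass. Of all 15280 genes tested with limma, 12.7% passed the threshold. Genes called higher under DH made up 7.67% of those tested and genes called lower 4.99%. The median LFC of the 9 genes was -0.07, against -0.0073 over all genes. Scaling to library totals moved the balance of all calls from 60.6% to 43.4% higher.

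Panx1, the ATP release channel, was at 325, 308, 335, 391 and 367 in adult EH rats. In adult DH rats it was at 405, 393, 495, 418 and 484, so that every DH rat was above every EH rat. The LFC was 0.35 (0.16 to 0.53, limma adjusted p = 0.0166), an increase of 27.0%. It was the sole member without overlap between these groups, as were 10.9% of all genes, and its call held when any rat was left out. Magnocellular markers rose in the same rats, with 5 of 9 higher and 1 lower, and their sums were 259829.6 to 345329 in adult EH and 358675 to 469956 in adult DH rats. Of the same 9 markers, 4 were higher and 1 lower in ageing, and 4 were higher and 0 lower in aged DH against aged EH rats. Panx1 had an LFC of 0.11 in ageing and -0.03 in aged DH, and passed in neither. Whether its changes differ from those of the markers was not tested. The part of magnocellular markers in the higher Panx1 counts was not tested.

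Gjb2 was at 1450.2, 1045, 1388, 1631 and 1527 in adult EH rats. It was at 875, 1148, 1052, 1125 and 1107 in adult DH rats. The same adult EH rat, numbered 2, lay within the DH range and the other 4 lay above it. The LFC was -0.40 (-0.63 to -0.17, limma adjusted p = 0.0247).

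Gjb1 was at 769, 649, 607, 817 and 911 in adult EH and at 477, 649.6, 573, 616 and 571 in adult DH rats. The ranges overlapped through the adult EH rats numbered 2 and 4. The LFC was -0.37 (-0.60 to -0.14, limma adjusted p = 0.0373). Of 12 oligodendrocyte markers, Opalin and Cnp fell in adult DH (LFC -0.25 and -0.27), and the sums were 272172 to 396513 in adult EH and 259397 to 331735 in adult DH rats. Their part in the lower Gjb1 counts was not tested. Gjc3 had an LFC of -0.21 (-0.45 to 0.04).

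The call of Gjb1 was lost without any of the adult EH rats 1, 5 and 6 or the adult DH rats 1, 3 and 5 (limma adjusted p = 0.0671 to 0.0885). That of Gjb2 was lost without any of the adult EH rats 1, 5 and 6 or the adult DH rats 1 and 3 (limma adjusted p = 0.0511 to 0.0631). Without the mean trend both calls were lost, with a limma adjusted p of 0.0873 for Gjb1 and 0.0712 for Gjb2.

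The remaining members did not pass in adult DH. Gjc1 was at 115, 113, 86.3, 112 and 148 in adult EH and at 206, 126, 166, 128 and 157 in adult DH rats. Of the DH rats, 3 lay above all EH rats. Its LFC of 0.44 (0.11 to 0.77) had a limma adjusted p of 0.0805, which was 0.0392 without the adult EH rat 6, and DESeq2 gave 0.0438. Gja1 (LFC -0.07, -0.17 to 0.03) and Gjb6 (0.07, -0.07 to 0.22) had intervals that spanned 0 and left out a change of the size seen with ageing. Gjd2 had an LFC of -0.16 (-0.34 to 0.02) and Gja4 of 0.05 (-0.27 to 0.38).

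In aged rats the response to DH was examined as aged DH against aged EH, which shares the aged EH rats with the ageing comparison. By limma 0 of the 9 genes passed, by edgeR 0 and by DESeq2 0, and 1 had an unadjusted p under 0.05. Of all 15346 genes tested with limma, 7.29% passed the adjusted threshold and 21.4% had an unadjusted p under 0.05. EdgeR called 7.25% of them, and DESeq2 called 1534. The median LFC of the 9 genes was 0.06, against -0.003 over all genes.

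The gene with the low unadjusted p was Gjd2. It was at 157, 155, 159.7, 164 and 196 in aged EH and at 184, 196, 199, 188 and 179 in aged DH rats. Of the aged EH rats, 4 lay below all aged DH rats and the rat numbered 6 lay among them. The LFC was 0.19 (0.01 to 0.38, limma adjusted p = 0.216).

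Panx1 was at 399, 368, 434, 375 and 363 in aged EH and at 369.9, 419.9, 363, 405 and 345 in aged DH rats. The groups overlapped over most of their range, and the LFC was -0.03 (-0.18 to 0.13). Gjb2 was at 907 to 1272 in aged EH and 799.5 to 1206 in aged DH rats (LFC -0.05, -0.28 to 0.18). Gjb1 was at 625 to 957 in aged EH and 672 to 827 in aged DH rats (LFC 0.06, -0.15 to 0.27). These are the 3 genes that passed in adult DH.

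Among the other members in aged DH, Gja1 had an LFC of -0.0065 (-0.10 to 0.09) and Gja4 of -0.02 (-0.26 to 0.22). Gjb6 had 0.11 (-0.07 to 0.29), Gjc3 0.23 (-0.01 to 0.48) and Gjc1 0.29 (-0.09 to 0.67).

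Whether the response to DH differed between the ages was tested as the LFC in aged rats less that in adult rats. By limma, edgeR and DESeq2 alike, 0 of the 9 genes passed, and 5 had an unadjusted p under 0.05. Of all 15326 genes, limma called 0%, edgeR 0% and DESeq2 0.359%, and 9.93% had an unadjusted p under 0.05. The 5 genes were Panx1, Gjd2, Gjb1, Gjc3 and Gjb2. The difference for Panx1 was -0.37 (-0.61 to -0.14, limma adjusted p = 0.272). That for Gjd2 was 0.35 (0.11 to 0.58, limma adjusted p = 0.297), with the LFC below 0 in adult and above 0 in aged rats. The differences for Gjb1, Gjc3 and Gjb2 were 0.43, 0.44 and 0.35, with limma adjusted p of 0.371, 0.403 and 0.497. A difference between the ages was therefore not shown for any member, although the calls of Panx1, Gjb2 and Gjb1 were made in adult rats and not in aged rats. Of 12 oligodendrocyte markers, 12 had a difference above 0 (median 0.28). Of these, 8 had an unadjusted p under 0.05 and limma called 0. The part of these markers in the differences for Gjb1, Gjc3 and Gjb2 was not tested.

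Aged DH rats were also set against adult DH rats, a comparison added after the data were seen. These 10 rats share no table, so whole reads of all 20 rats were scaled together, and the values are on that scale. Here 4 of the 9 genes passed, with Gja1, Gjc1 and Gjb6 lower and Gjb1 higher in aged DH rats. Of all 15312 genes tested with limma, 10.7% passed, 5.43% with higher and 5.26% with lower expression in aged rats. The median LFC of the 9 genes was -0.13, against 0.009 over all genes. Scaling to library totals moved the balance of all calls from 50.8% to 32.9% higher.

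Gja1 was at 12031, 11366, 11048, 12620.3 and 10476 in adult DH rats. It was at 9574, 9826, 10076, 10337 and 9724 in aged DH rats. No aged rat reached the lowest adult rat. The LFC was -0.21 (-0.31 to -0.12, limma adjusted p = 0.0105), and the call held when any rat was left out.

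Gjb1 was at 488, 664, 584, 629.6 and 582 in adult DH and at 766, 816, 668, 791 and 755 in aged DH rats. Every aged rat was above every adult rat, though the lowest aged rat was only just above. The LFC was 0.37 (0.20 to 0.54, limma adjusted p = 0.0104), and the call held when any rat was left out. Groups did not overlap for Gja1 and Gjb1, 2 of the 9 genes, and for 9.02% of all genes. Among oligodendrocyte markers in the same rats, 1 rose (Ermn, LFC 0.37) and 3 fell, with an LFC of -0.53 for Ugt8 and -0.44 for Cldn11, and the sums were 265596 to 338942 in adult DH and 275612 to 323026 in aged DH rats. Their part in the Gjb1 difference was not tested.

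Gjc1 was at 211, 129, 169, 131 and 159.6 in adult DH and at 100, 103, 99.4, 130.2 and 61.6 in aged DH rats. A single aged rat reached the lowest adult value. The LFC was -0.70 (-1.10 to -0.31, limma adjusted p = 0.0257), and the call was lost without the adult DH rat 1 or 3 (limma adjusted p = 0.0668 and 0.0575).

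Gjb6 was at 2089 to 2677 in adult DH and 1628 to 2182 in aged DH rats, which overlapped. Its LFC was -0.28 (-0.45 to -0.11, limma adjusted p = 0.0387). The call was lost without any of the adult DH rats 1, 2, 3 and 4 or the aged DH rats 1, 2, 3 and 6 (limma adjusted p = 0.0508 to 0.089). Without the mean trend the calls of Gjb6 (limma adjusted p = 0.0975) and Gjc1 (0.0615) were lost. Panx1 was at 401 to 505 in adult DH and 340 to 414 in aged DH rats. Its LFC of -0.25 had a limma adjusted p of 0.0588, which was 0.0422 without the adult DH rat 2. DESeq2 gave an adjusted p of 0.0277, and limma gave 0.0408 with scaling to library totals and 0.0406 with all 4 groups in 1 fit.

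Gjb2 (LFC -0.07, -0.29 to 0.15) and Gjc3 (-0.11, -0.34 to 0.11), which fell with ageing in EH rats, did not pass in DH rats. Of 13 leptomeningeal markers 12 fell in aged DH rats, with sums of 30449.9 to 37003 in adult DH and 12163 to 19811 in aged DH rats. Of 11 arterial and mural markers 5 fell. Of 8 endothelial markers, the list that Gjc1 went with, 1 fell (Kdr, LFC -0.28). Of 14 astrocyte markers, Glul was higher (1 gene) and Aqp4 and Aldh1l1 were lower (2 genes). The part of these markers in the lower Gja1, Gjb6 and Gjc1 counts was not tested.

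**Figure D4:**
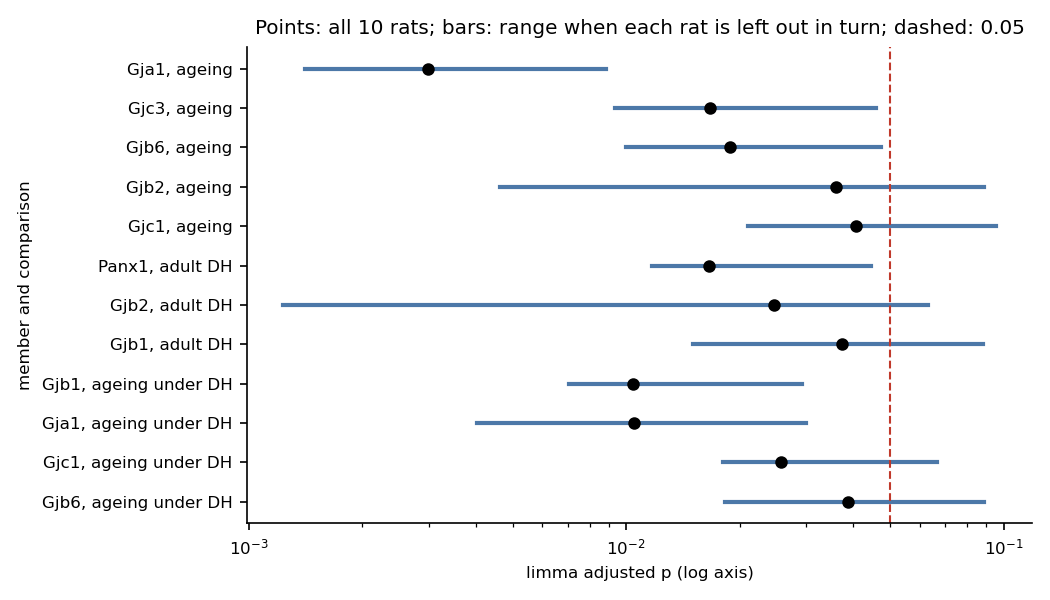
Limma adjusted p (x axis, log scale) of each call, named by gene and comparison (y axis). Points are values with all 10 rats, bars span the values when each rat is left out in turn, and the dashed line is 0.05. The bars of Gja1, Gjc3 and Gjb6 in ageing, Panx1 in adult DH, and Gjb1 and Gja1 in aged DH against adult DH stay below the line.

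On the common scale the levels of a gene in the 4 groups can be set in order. Gja1 had means of 12055 ± 482 in adult EH, 11508 ± 838 in adult DH, 9916 ± 701 in aged EH and 9907 ± 302 in aged DH rats (SD, n = 5). The 2 aged groups did not differ beyond their spread, nor did the 2 adult groups, and the order followed age. Gjb6 had the same split, at 2168 ± 172 and 2279 ± 237 in adult EH and adult DH rats and 1735 ± 191 and 1879 ± 219 in aged EH and aged DH rats (SD, n = 5).

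Gjb2 stood apart from these, with 1440 ± 225 in adult EH rats and 1037 ± 159.7 to 1084 ± 112 in the other 3 groups (SD, n = 5), which did not differ beyond their spread. Gjb1 was lowest in adult DH rats, at 589.7 ± 66.1, and between 733 ± 127 and 768 ± 124 in the other 3 groups (SD, n = 5). Panx1 was highest in adult DH rats, at 448 ± 47.5, and between 353 ± 33.6 and 381 ± 28.4 elsewhere (SD, n = 5). Gjc1 went from 78.8 ± 12.6 in aged EH to 159.9 ± 33.5 in adult DH rats, with aged DH and adult EH rats between them (SD, n = 5). Gja4 had means from 138 ± 14.3 to 153 ± 30.2, and no pair of groups differed beyond its spread (SD, n = 5).

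Other genes of the families that were tested included Gja5, Panx2 and Panx3. None of these 3 passed with limma, edgeR or DESeq2 in any comparison. By unadjusted p under 0.05 there were 0 of the 3 in ageing, 1 in adult DH (Panx3, LFC -0.76), 0 in aged DH, 0 for the difference between the ages and 1 in aged DH against adult DH (Panx2, LFC 0.13). A further 9 had a mean under 10, with at most 15 reads in a rat.

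Genes of proteins that bind, anchor or modify gap junctions were read next. Of 19 such genes tested, limma called 0 in ageing, where 2 had an unadjusted p under 0.05 and edgeR and DESeq2 called 0. In adult DH, Arhgef28 fell (LFC -0.17, limma adjusted p = 0.0469). In aged DH, Dbn1 fell, which encodes the actin-binding protein drebrin (LFC -0.20, limma adjusted p = 0.0495). In aged DH against adult DH rats, Dbn1 and Ccn3 were lower (LFC -0.16 and -1.06, limma adjusted p = 0.0467 and 0.0472), where edgeR called 1 and DESeq2 3 of the list. No gene of this list was called higher by limma in any of these comparisons. Over all genes limma called 5.99% in ageing, 12.7% in adult DH, 7.29% in aged DH and 10.7% in aged DH against adult DH. The calls of this list were not above these shares.

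Other large-pore channels were read in the same way, with 10 tested. In ageing Ttyh1 and Ttyh3 fell (LFC -0.18 and -0.14, limma adjusted p = 0.0204 and 0.0494), where edgeR called 1 and DESeq2 2 of the list. Both Ttyh1 and Ttyh3 were lower in aged DH than in adult DH rats (LFC -0.19 for each). These genes belong to a family that has been described as glial and neuronal chloride channels. In adult DH Lrrc8d rose (LFC 0.14, limma adjusted p = 0.04), a subunit of the volume-regulated anion channel. In aged DH limma called 0 of the 10, with 2 at an unadjusted p under 0.05, and edgeR and DESeq2 called 0.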

How the data were processed

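Reads had been trimmed, aligned to Rn6 with STAR and assigned to genes with featureCounts by the authors. The signal in each library's column, as deposited by the authors, is that count divided by a DESeq2 size factor of its table, and there is 1 table for each of 3 comparisons. The authors' own fold changes and p-values were not used. Every value was a whole multiple of its library's step within 0.1 read, so whole reads were recovered, and 10 libraries in 2 tables gave the same reads.

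Genes with a mean of at least 10 were tested with limma 3.58.1 (R 4.3.3, two-sided, moderation that follows the mean, Benjamini-Hochberg adjustment over all genes tested, threshold 0.05) on log2 of the normalized count plus 1. EdgeR 4.0.16 and DESeq2 1.42.0 were run on recovered reads. All fits were tested on simulated data. The members, the lists and the alternatives were chosen with earlier results of these data known. Named genes are the 9 members, other family genes tested, up to 4 called genes of each list, and the 3 genes most like a member (mean of at least 50), and some genes that this rule names are not reported here. Lists of oligodendrocyte precursor, ependymal, choroid plexus and blood markers were also read. Replicate numbers are those of the labels, which state no pairing of rats between groups, and the main fits used none. Gene positions on Rn6 and connexin proteins were not analysed here. Figures were drawn with matplotlib 3.10.9.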

Additional observations from a re-analysis of the deposited data

Results flagged for a closer look

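Of 54 groups of 5 rats checked for a rat far from the others, 2 stood out, and both are the same rat in the same gene. The aged EH rat 6 had a normalized count of Gjd2, the connexin of electrical synapses, of 197 in the table of ageing and 196 in the table of aged DH, where the other 4 rats lay between 155 and 164. Its gap to the next rat was 0.779 and 0.771 of the range. The cutoff was a gap over 0.71 of the range, which chance gives in about 1 in 20 groups. Each EH group was checked in 2 comparisons, so the 54 groups are not all separate. Without this rat the LFC of Gjd2 in ageing was -0.31 with a limma adjusted p of 0.0496.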

How the results depend on the processing

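The number of members called depended on the moderation and on single rats. In ageing 5 were called, and 1 without a mean trend in the moderation, where the call of Gja1 was the one kept. In adult DH 3 were called, and 1 without the trend. In aged DH against adult DH, 4 were called, and 2 without the trend. With a rat left out in turn the counts ranged from 3 to 5 in ageing, from 1 to 3 in adult DH and from 2 to 4 in aged DH against adult DH. The lowest counts came without aged EH rat 2, 4 or 5 or adult EH rat 1, 5 or 6 in ageing, without adult EH rat 1 or 5 or adult DH rat 1 or 3 in adult DH, and without adult DH rat 1 or 3 in the last. No alternative called a member in aged DH or for the difference between the ages. The call of Gjc1 in ageing was also lost with no filter on low values (limma adjusted p = 0.0623) and with all 4 groups scaled together in 1 fit (0.0514). Panx1 in aged DH against adult DH, not called, was called by DESeq2 (adjusted p = 0.0277), with library totals (0.0408) and with all 4 groups in 1 fit (0.0406). The cause of these changes was not tested.

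The labels state no pairing of rats by replicate number. The deviations of same-numbered rats had an r of -0.0484 to 0.124 in ageing, -0.0825 to 0.134 in adult DH and -0.0616 to 0.162 in aged DH. Rats of different numbers had an r of -0.128 to 0.131, -0.0942 to 0.121 and -0.25 to 0.114. With so few rats these ranges cannot exclude a pairing. Not every rat correlated best with the rat of its own number. With the replicate number as a block, 5 members were called in ageing, 1 in adult DH and 2 in aged DH against adult DH. The calls lost under the block were those of Gjb1 (limma adjusted p = 0.191) and Gjb2 (0.119) in adult DH, and of Gja1 (0.0692, LFC -0.17) and Gjb6 (0.0962) in aged DH against adult DH. Under the block the LFC of Gja4 in adult DH was -0.0060, that of Panx1 in aged DH 0.029 and that of Gjb2 in aged DH against adult DH 0.0455, each with the other sign and none called.

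Scaling all 4 groups together, an alternative chosen after seeing the data, gave Gja1 in aged DH an LFC of 0.0011. With a rat left out, values near 0 that were never called changed sign. In ageing these were Gja4 (-0.13 to 0.0040) and Gjb1 (-0.16 to 0.0055), and in adult DH Gja4 (-0.042 to 0.16). In aged DH they were Gja1 (-0.032 to 0.029), Gja4 (-0.074 to 0.033), Gjb1 (-0.0024 to 0.15), Gjb2 (-0.11 to 0.044) and Panx1 (-0.064 to 0.013). For the difference between the ages they were Gja4 (-0.18 to 0.024), Gjb6 (-0.025 to 0.095) and Gjc1 (-0.26 to 0.0063), and in aged DH against adult DH Gjb2 (-0.14 to 0.023).

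Over all genes, 921 were called in ageing, 516 without the trend, 599 without aged EH rat 4 and 594 without adult EH rat 5. In adult DH 1934 were called, and 987 with the replicate block. In aged DH 1119 were called, 671 without the trend, 653 with the block, 679 without aged EH rat 5 and 678 without aged DH rat 5. In aged DH against adult DH 1637 were called, 1039 without the trend and 1063 without adult DH rat 1. For the difference between the ages limma called 0, at most 5 with a rat left out, and DESeq2 55. On recovered reads edgeR called 900 genes in ageing, 1936 in adult DH and 1113 in aged DH. Precision was limited by 5 rats per group and, for Gjc1, by 62 to 213 reads in a rat.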

Other observations

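Markers of further cell types were read in the same libraries by limma, with the adjusted threshold of 0.05. Of 5 oligodendrocyte precursor markers tested, 2 fell with ageing and none rose (median LFC -0.15), and in adult DH 1 rose and 1 fell. Of 5 choroid plexus markers, 1 rose with ageing (median LFC -0.15) and 1 fell in adult DH (median LFC -0.29). Of 10 general neuron markers, limma, edgeR and DESeq2 each called 0 in ageing, where 1 had an unadjusted p under 0.05 (median LFC 0.038), and in adult DH 1 rose and 1 fell. In aged DH 1 neuron marker rose and Slc17a7 fell (LFC -1.92). In aged DH against adult DH rats, 1 neuron marker was higher and Slc17a7 was lower (LFC -1.32). Among choroid plexus markers, 1 was higher and Ttr was lower (LFC -2.14) in these rats.

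Of 6 blood cell markers, limma, edgeR and DESeq2 each called 0 in ageing, where 1 had an unadjusted p under 0.05. In adult DH 1 fell by limma, with a median LFC of -0.74, and in aged DH 1 fell, with a median LFC of -0.54. Of 3 ependymal and tanycyte markers tested, limma and edgeR called 0 and DESeq2 1 in ageing, where 1 had an unadjusted p under 0.05 (median LFC 0.013). In adult DH all 3 tools called 0 of them, and 0 had an unadjusted p under 0.05.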
